A study of Mus musculus with 6 samples.

Results

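Imprinted genes were followed in differentiated neural progenitor cells that made mutant neuroserpin or a fluorescent control protein. The set was given as 42 gene symbols of known mouse imprinted genes, chosen with earlier results of these data known, and a gene was counted as a member when it had at least 30 counts summed over all libraries. Of the 42 symbols, 40 had a row in the deposited count table of 39179 genes and 30 reached the minimum. The cells were progenitors, the dividing precursors of neurons and glia, isolated from the cerebral cortex of CD1 mouse embryos at stage E13.5 and then differentiated in flasks. Total RNA was sequenced from 3 G392E-NS samples, which stably expressed neuroserpin with the G392E change that causes the dementia FENIB, and from 3 GFP samples, which stably expressed green fluorescent protein. Neuroserpin is a protease inhibitor of neurons, and its G392E form polymerises in the endoplasmic reticulum. No cells with the wild-type protein were analysed here, so a difference between G392E-NS and GFP can belong to the mutation, to neuroserpin as such or to the pair of cell populations. The labels name neither the vector and its promoter nor the number of clones behind each population. They also do not say whether the 3 samples of a group came from separate cultures or transductions. The p-values therefore set the difference between groups against the spread of these samples only, and that spread may be technical.

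An imprinted gene is expressed mainly or only from the copy inherited from one parent. The choice is set by DNA methylation laid down in the egg or sperm at imprinting control regions, which usually govern several neighbouring genes at once, and it is kept through the divisions of the embryo by proteins such as ZFP57 and TRIM28. Many paternally expressed genes promote growth and many maternally expressed ones restrain it, and brain tissue expresses a large share of them, some with a parental bias that other tissues lack. The files hold gene totals, so the parental origin of the RNA was not measured, and the classes below are those known from mouse studies.

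The 6 libraries held 15507487 to 24835835 counts, and the first principal component, with 61.65% of the variance, placed all G392E-NS libraries on one side and all GFP libraries on the other. Levels are in CPM, counts relative to the library total after scaling by TMM factors, and are compared between genes only after division by exon length in kb. Differences are log2 fold changes of G392E-NS over GFP with their standard error (SE), from edgeR's quasi-likelihood test, and a gene was called at a Benjamini-Hochberg adjusted p under 0.05 over all 13775 genes tested. Of those, 660 were called higher and 187 lower. The counts moved with single libraries: leaving out GFP replicate 1 gave 196 higher and 46 lower, leaving out GFP replicate 2 gave 207 and 51, and leaving out G392E-NS replicate 2 gave 428 and 85. Leaving out GFP replicate 3 gave 382 higher, and leaving out G392E-NS replicate 1 gave 2.81% lower. Reads of the mouse gene Serpini1 averaged 5.72 ± 0.924 CPM in G392E-NS and 4.69 ± 0.483 CPM in GFP (SD, n = 3 each), not called, so the table holds no separate readout of the introduced neuroserpin. As these are bulk cultures, fewer cells of a type and less RNA per cell cannot be told apart in any value that follows.

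Promoters of 4 members are shown. Grb10 had the smallest adjusted p of the members, and Peg3 and Usp29 are neighbours. Mest was not called and is shown because it carries more than 1 copy of the hexamer that ZFP57 reads. Nap1l5 also carries more than 1 copy, is not shown and had a log2 fold change of -0.21. Gnas and Ppp1r9a, which were called, are not shown, and their windows held 0 copies. Each is the RefSeq window in GRCm38.p6 from 250 bases before to 50 bases after a transcript start, written 5′ to 3′ on the gene's own strand. Capitals mark the hexamer TGCCGC, searched on both strands, which reads GCGGCA on the other strand. The Grb10 window is chr11:12037371-12037670, minus strand.
Grb10: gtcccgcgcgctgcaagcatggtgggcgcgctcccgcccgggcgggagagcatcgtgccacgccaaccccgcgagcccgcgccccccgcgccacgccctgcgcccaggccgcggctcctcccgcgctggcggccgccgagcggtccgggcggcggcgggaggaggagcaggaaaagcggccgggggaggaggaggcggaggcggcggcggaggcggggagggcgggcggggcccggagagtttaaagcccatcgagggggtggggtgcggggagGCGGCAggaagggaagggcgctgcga
The Peg3 window is chr7:6730370-6730669, minus strand.
Peg3: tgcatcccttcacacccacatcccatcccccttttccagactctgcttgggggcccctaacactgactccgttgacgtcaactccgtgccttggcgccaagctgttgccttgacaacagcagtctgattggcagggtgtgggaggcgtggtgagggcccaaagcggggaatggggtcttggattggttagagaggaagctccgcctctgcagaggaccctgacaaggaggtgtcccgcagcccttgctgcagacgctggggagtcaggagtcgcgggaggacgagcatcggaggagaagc
The Usp29 window is chr7:6730333-6730632, plus strand.
Usp29: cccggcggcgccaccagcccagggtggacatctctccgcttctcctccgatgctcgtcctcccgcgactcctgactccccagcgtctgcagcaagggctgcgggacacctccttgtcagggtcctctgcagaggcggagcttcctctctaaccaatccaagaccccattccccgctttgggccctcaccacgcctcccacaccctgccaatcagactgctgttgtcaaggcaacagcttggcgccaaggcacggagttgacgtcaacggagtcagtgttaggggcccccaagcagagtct
The Mest window is chr6:30737800-30738099, plus strand.
Mest: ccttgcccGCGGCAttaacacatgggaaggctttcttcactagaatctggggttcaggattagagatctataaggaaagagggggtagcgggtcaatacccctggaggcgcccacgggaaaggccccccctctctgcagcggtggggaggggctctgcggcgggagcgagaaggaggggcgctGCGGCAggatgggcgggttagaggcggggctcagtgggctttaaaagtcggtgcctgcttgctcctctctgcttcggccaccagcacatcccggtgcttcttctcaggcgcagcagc
The Peg3 and Usp29 windows face away from each other and share 263 bases, so both genes start from one short stretch of DNA. That stretch held 0 copies of the hexamer, the Grb10 window shown held 1 and the Mest window shown held 2. This Grb10 window also held 45 CpG dinucleotides, against 13 in that of Peg3, 17 in those of Usp29 and Mest, and a median of 7 over all windows. Where a gene had more than 1 window, one with the most copies of the hexamer is shown. Grb10's other window, chr11:12027922-12028221, held 0 copies and 9 CpG dinucleotides. A further Mest window, chr6:30733256-30733555, held 0 copies and 8 CpG dinucleotides. RefSeq windows matched 34 of the 42 symbols, and 12 of these (35.3%) had the hexamer in at least 1 window, against 3527 of 27025 mouse genes (13.1%). Among genes tested here, 9 of 21 imprinted genes (42.9%) and 2354 of 10317 genes in all (22.8%) had it. A match is a description of letters, not a binding site, and a window without one says only that these letters are not in it.

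The imprinted genes did not move as a block: 2 of the 27 tested members were called higher in G392E-NS cells, Grb10 and Gnas, and 2 were called lower, Peg3 and Ppp1r9a. Over all genes tested 4.79% were called higher, 1.36% lower and 6.15% in either direction, against 14.8% of the tested imprinted genes, which is a difference of few genes in so short a list. In 11 of the 27 the groups did not overlap, 7 higher and 4 lower in G392E-NS, against 28.6% of all genes tested (15.7% higher and 12.9% lower). The median log2 fold change of the 27 was 0.02 and that of all genes tested -0.00469, while the median size of the change regardless of sign was 0.21 and 0.19. For 16 members the log2 fold change lay within 0.25 of 0. The 4 called members sit in 4 separate domains on 4 chromosomes, out of 18 domains that held a member.

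**Figure D1:**
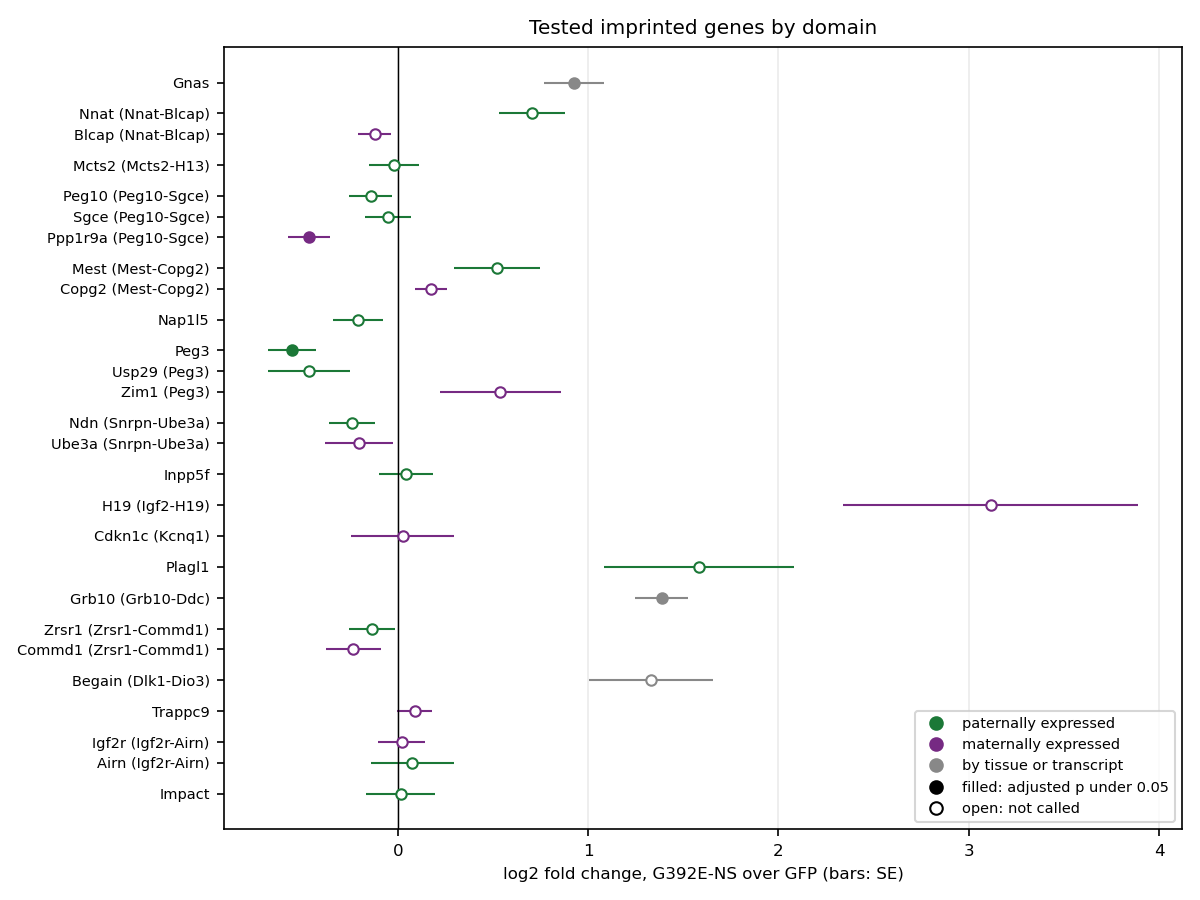
Log2 fold change of G392E-NS over GFP on the horizontal axis, with bars for its SE, for the 27 tested imprinted genes grouped by domain and coloured by the parental class known from mouse. Filled points are called (Grb10 1.39, Gnas 0.93, Peg3 -0.56, Ppp1r9a -0.47), open ones are not, and most open points lie near 0.

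**Figure D2:**
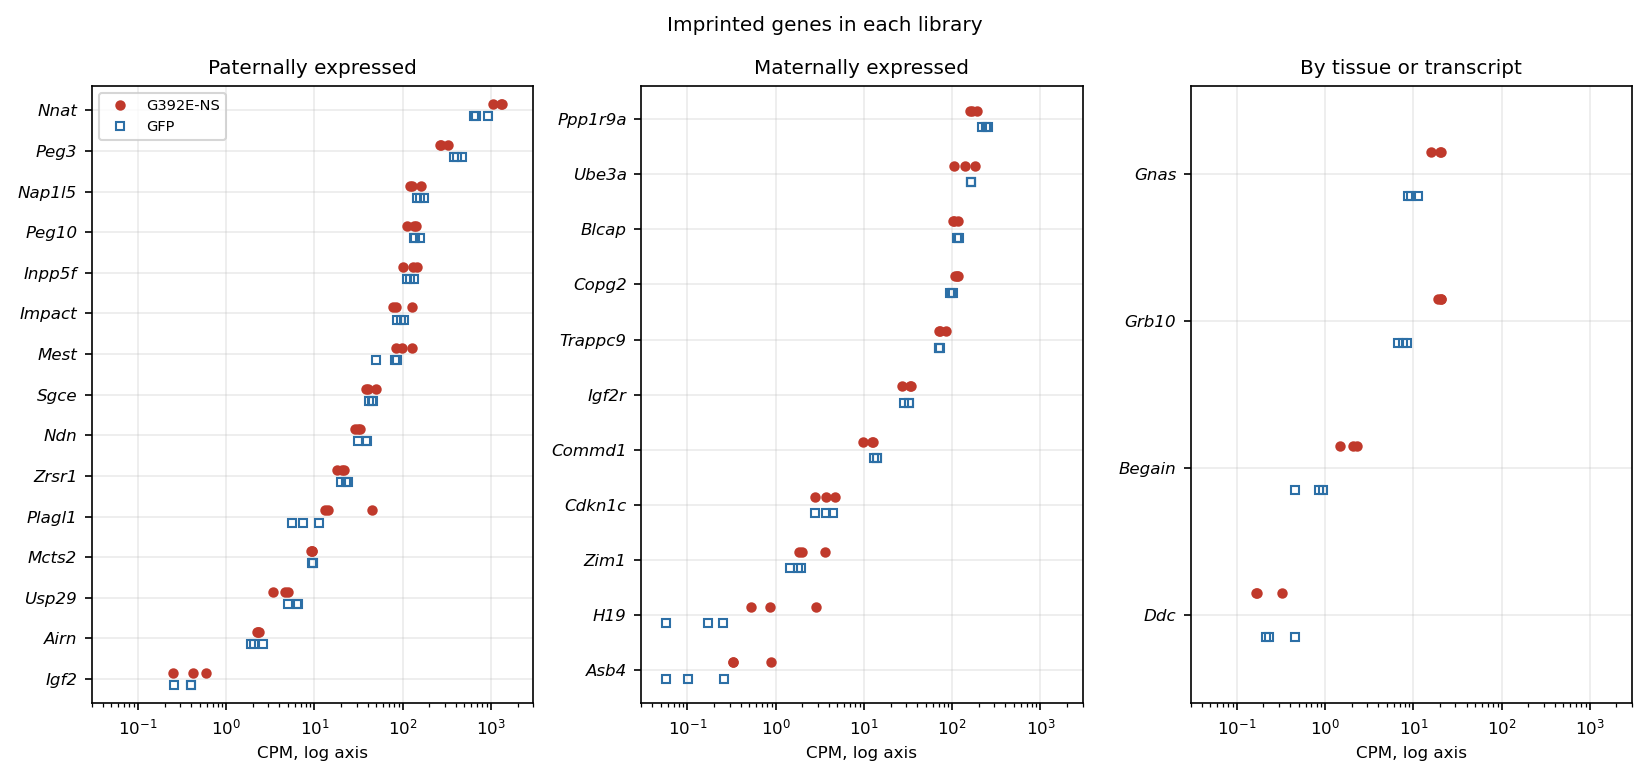
CPM on a log axis in each library for the 30 imprinted genes with at least 30 counts, G392E-NS as filled circles and GFP as open squares, in panels by parental class. Nnat stands at the top and the groups overlap or lie close together for most genes, while Grb10 and Gnas show separate groups.

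Grb10 (ENSMUSG00000020176, GRCm38 chromosome 11, 11930508 to 12038683) encodes an adaptor that binds the insulin and IGF1 receptors and dampens their signal. It is maternally expressed in most mouse tissues and paternally expressed in neurons. Grb10 was at 20.5, 18.9 and 20.5 CPM in G392E-NS libraries, against 6.62, 7.73 and 8.51 CPM in GFP libraries. Every G392E-NS library was more than 10 CPM above every GFP library, and the spread within each group was about 1 CPM. The mean of 20.0 ± 0.926 CPM in G392E-NS and 7.62 ± 0.949 CPM in GFP (SD, n = 3 each) gave a log2 fold change of 1.39 ± 0.14 (SE), or 2.61-fold, with an adjusted p of 0.00145 (edgeR quasi-likelihood test, Benjamini-Hochberg). Ddc, its neighbour and the decarboxylase of dopamine and serotonin synthesis, was too low to test, with 4, 4 and 5 counts in G392E-NS libraries against 4, 9 and 5 in GFP libraries.

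Gnas (ENSMUSG00000027523, chromosome 2, 174284320 to 174346744) is a complex locus whose best known product is the stimulatory G protein alpha subunit, which couples receptors to cyclic AMP. Its overlapping transcripts differ in parental origin. Gnas was at 20.4, 15.9 and 20.0 CPM in G392E-NS libraries, against 8.70, 9.44 and 11.4 CPM in GFP libraries. The groups did not overlap, and the lowest G392E-NS library was above the highest GFP library. Gnas rose in G392E-NS by a log2 fold change of 0.93 ± 0.16 (SE), 1.90-fold, with an adjusted p of 0.0159 in edgeR's test. The call was lost without GFP replicate 1 (adjusted p 0.0842) or GFP replicate 2 (0.077), at log2 fold changes of 0.84 and 0.90. The total is also uncertain as a measure of any one product: an annotated opposite-strand gene, Gm20721, covers 1469 exon bases of Gnas, 13.1% of them, and up to 85.4% of the length of a protein-coding Gnas transcript, while the antisense Nespas shares 988 bases. Gm20721 had 0 counts and Nespas 44, and the strand setting of the count is not given in the sources used here.

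Peg3 (ENSMUSG00000002265, chromosome 7, 6703892 to 6730431) encodes a zinc finger transcription factor, paternally expressed and prominent in brain and placenta. Peg3 was at 325, 262 and 273 CPM in G392E-NS libraries, against 472, 408 and 383 CPM in GFP libraries. All G392E-NS values lay below all GFP values. The log2 fold change was -0.56 ± 0.13 (SE), 1.47-fold lower in G392E-NS, with an adjusted p of 0.0424 in edgeR's test. That call is a narrow one, since it was lost on leaving out GFP replicate 1 (adjusted p 0.172), GFP replicate 2 (0.135), GFP replicate 3 (0.0641), G392E-NS replicate 2 (0.109) or G392E-NS replicate 3 (0.0944), with log2 fold changes of -0.47 to -0.67 over all 6 omissions.

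Usp29, a ubiquitin-specific protease gene that starts from the DNA it shares with Peg3 and is also paternally expressed, was at 4.95, 3.39 and 4.63 CPM in G392E-NS libraries and 6.34, 4.97 and 6.59 CPM in GFP libraries. The G392E-NS values were all lower, by a narrow margin between the groups. Its log2 fold change of -0.47 ± 0.22 (SE) was close in size to that of Peg3 but was not called (adjusted p 0.25, edgeR). Zim1, a zinc finger gene on the other side of Peg3 that is maternally expressed, had the opposite sign. It was at 2.0, 3.65 and 1.83 CPM in G392E-NS libraries and 1.79, 1.96 and 1.45 CPM in GFP libraries, with overlapping groups and an uncalled log2 fold change of 0.54 ± 0.32 (SE; edgeR adjusted p 0.36), or 0.16 without G392E-NS replicate 2. Per kb of exon, Peg3 averaged 21.5 CPM in G392E-NS and 31.6 CPM in GFP, while Usp29 averaged 0.239 and 0.33, so nearly all RNA of the domain was Peg3.

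Ppp1r9a (ENSMUSG00000032827, chromosome 6, 4902917 to 5165661) encodes neurabin, an actin-binding scaffold of protein phosphatase 1 in neurons, reported as maternally expressed in some embryonic tissues. Ppp1r9a was at 191, 157 and 166 CPM in G392E-NS libraries, against 253, 243 and 215 CPM in GFP libraries. The groups did not overlap. The log2 fold change was -0.47 ± 0.11 (SE), 1.38-fold lower in G392E-NS, with an adjusted p of 0.0485 in edgeR's test. This was the call nearest to the threshold: it was lost when any GFP library was left out (0.189, 0.184 and 0.0641 without replicates 1, 2 and 3) and on omission of G392E-NS replicate 2 (0.13) or replicate 3 (0.0988), with log2 fold changes of -0.40 to -0.57 over all 6 omissions, and its adjusted p was 0.0516 with upper-quartile scaling, 0.0506 with limma-voom and 0.0505 with a filter of 1 CPM.

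The other genes of that domain did not pass. Peg10, a retrotransposon-derived gene needed for the placenta, was at 135, 142 and 112 CPM in G392E-NS libraries and 139, 135 and 155 CPM in GFP libraries. Its log2 fold change was -0.14 ± 0.11 (SE; edgeR adjusted p 0.491). Sgce, which encodes epsilon-sarcoglycan and starts next to Peg10 in the opposite direction, was at 38.0, 49.7 and 40.4 CPM in G392E-NS libraries and 46.4, 45.1 and 41.4 CPM in GFP libraries. Its log2 fold change was -0.05 ± 0.12 (SE; edgeR adjusted p 0.841). Both pairs of groups overlapped. Asb4, an adaptor of a ubiquitin ligase, was too low to test, with 8, 21 and 5 counts in G392E-NS libraries and 1, 2 and 6 in GFP libraries.

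**Figure D3:**
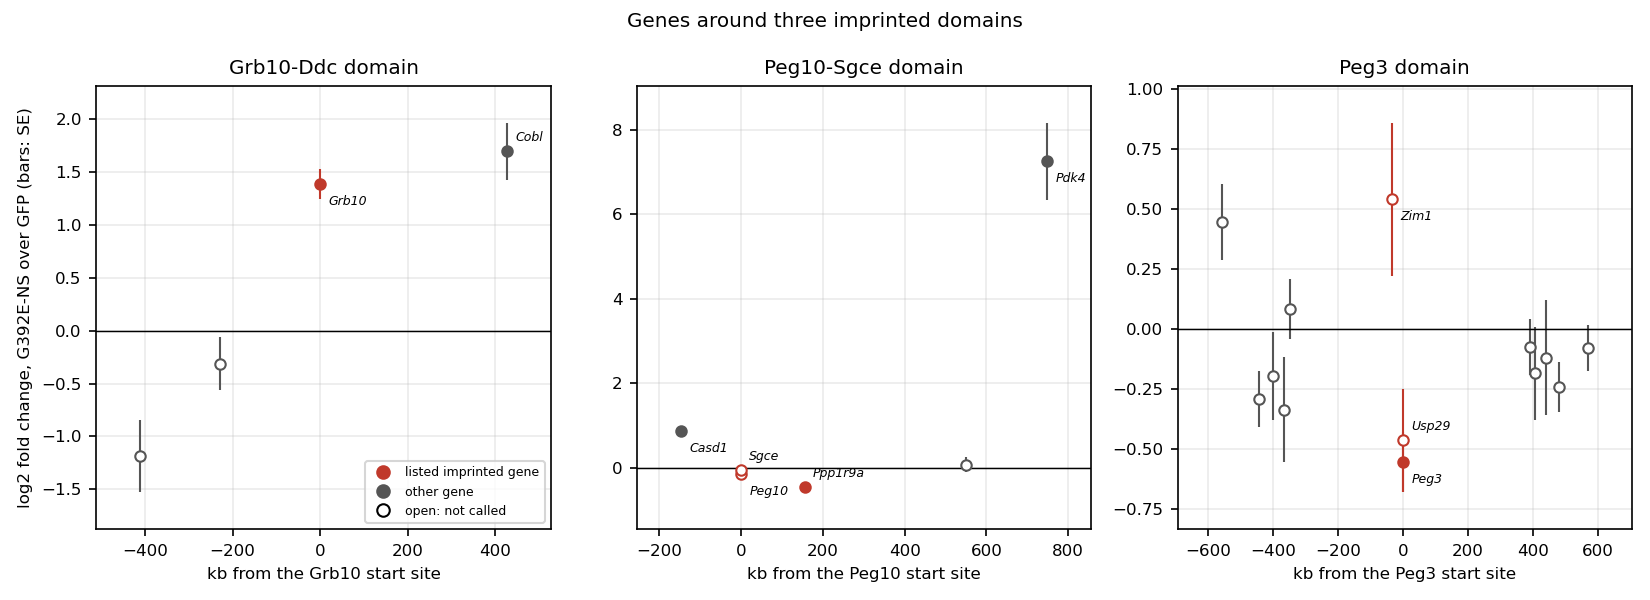
Log2 fold change of G392E-NS over GFP, with bars for its SE, of the tested genes around Grb10, Peg10 and Peg3, against distance in kb from the start site named under each panel. Listed imprinted genes are red and other genes grey, filled when called. Peg3 (-0.56) and Usp29 (-0.47) lie together below 0 with Zim1 (0.54) above it, and around Peg10 lie Casd1 (0.87) and Pdk4 above 0 and Ppp1r9a (-0.47) below. The height of Pdk4 is a fitted value that depends on the prior count, since GFP libraries held 1 count of it. Its sign follows from the filter on low counts, which it passed only through the G392E-NS libraries.

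Among the 23 members that were not called, 4 had non-overlapping groups with G392E-NS above GFP by more than 1.5-fold, and 3 of these had a log2 fold change above 1. Nnat, a paternally expressed gene in an intron of Blcap that encodes a small proteolipid of the endoplasmic reticulum in neural and endocrine cells, was the most abundant member per kb of exon, at a mean of 667 CPM in G392E-NS and 409 CPM in GFP. Its libraries were at 1040, 1304 and 1315 CPM in G392E-NS and 684, 636 and 927 CPM in GFP. The log2 fold change was 0.70 ± 0.17 (SE), with an adjusted p of 0.0549 in edgeR's test, just outside the threshold that Ppp1r9a is just inside. Nnat was called in 4 of 15 alternatives, among them without GFP replicate 3 (0.0369) or G392E-NS replicate 1 (0.042), and by DESeq2 (0.00142). Blcap, the host gene and itself part of the domain, was at -0.12 ± 0.09 (SE, adjusted p 0.449, edgeR), with overlapping groups.

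Plagl1, whose zinc finger product Zac1 regulates other imprinted genes, was at 13.1, 45.2 and 14.2 CPM in G392E-NS libraries and 7.37, 5.52 and 11.3 CPM in GFP libraries. G392E-NS replicate 2 stood apart, and the other 2 exceeded the highest GFP library by little. The log2 fold change of 1.58 ± 0.50 (SE) was not called (adjusted p 0.11, edgeR) and was 0.76 without G392E-NS replicate 2. It was called with no low-count filter (0.005). H19, a maternally expressed non-coding RNA that hosts a growth-restraining miRNA, had 21, 68 and 8 counts in G392E-NS libraries and 1, 5 and 4 in GFP libraries. It passed the filter on low counts only through the G392E-NS libraries, so its sign follows from the filter. Its fitted log2 fold change of 3.12 ± 0.78 (SE) was not called (adjusted p 0.0556, edgeR) and was 2.10 without G392E-NS replicate 2. H19 was called in 4 of the 13 alternatives that gave it a value. Among them were the fits without G392E-NS replicate 1 (0.0479) or replicate 3 (0.0459) and DESeq2 (0.00441). Igf2, the growth factor that shares H19's control region and is paternally expressed, had 6, 10 and 9 counts in G392E-NS libraries and 7, 8 and 6 in GFP libraries, which was too low to test.

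The Dlk1-Dio3 domain on chromosome 12 was close to undetected in both groups, apart from Begain at its edge. Dlk1, a Notch-related membrane protein of progenitors, had 3, 1 and 3 counts in G392E-NS libraries and 2, 1 and 1 in GFP libraries. Meg3, the long non-coding RNA of the maternal copy, had 4, 0 and 0 counts in G392E-NS libraries and 1, 1 and 1 in GFP libraries. Rian, which hosts small nucleolar RNAs, had 8, 3 and 0 counts in G392E-NS libraries and 5, 4 and 5 in GFP libraries. The miRNA host Mirg, the retrotransposon-derived Rtl1 and the deiodinase gene Dio3 had 0 counts in all 6 libraries, which allows up to 0.0243 CPM each over the pooled libraries (3 counts, counting error only). Of the 210 counts of the domain, 167 came from Begain, a postsynaptic scaffold-associated gene. Begain had 50, 35 and 35 counts in G392E-NS libraries and 8, 19 and 20 in GFP libraries, with no overlap. Its log2 fold change of 1.33 ± 0.33 (SE) was not called (edgeR adjusted p 0.0537). Begain was called in 2 of 15 alternatives, among them DESeq2 (adjusted p 0.0327). Magel2, a MAGE family gene of the Snrpn domain, and Dcn, the matrix proteoglycan decorin, were also at 0 counts, Phlda2 had 1 count and Slc22a18 had 22.

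**Figure D4:**
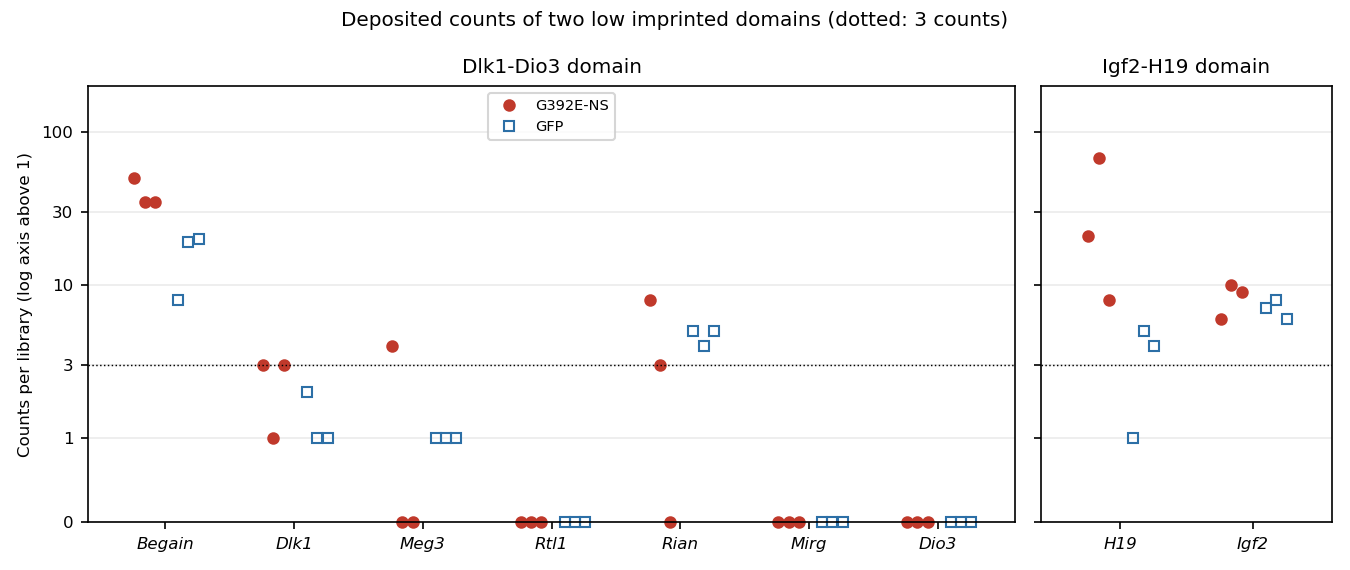
Deposited counts per library (log axis above 1) of the 7 genes of the Dlk1-Dio3 domain and of H19 and Igf2, G392E-NS as filled circles and GFP as open squares, with a dotted line at 3 counts. Begain and H19 are higher in G392E-NS libraries, and the other genes are at or under 10 counts in every library.

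None of the remaining members was called. Mest, a paternally expressed hydrolase-fold gene, was at 84.7, 129 and 98.2 CPM in G392E-NS libraries and 80.7, 86.9 and 50.0 CPM in GFP libraries, an uncalled log2 fold change of 0.52 ± 0.22 (SE; edgeR adjusted p 0.22). Its convergent neighbour Copg2, a subunit of the COPI vesicle coat, was at 106, 116 and 113 CPM in G392E-NS libraries and 100, 93.9 and 102 CPM in GFP libraries, without overlap and without a call (0.18, adjusted p 0.261, edgeR). The pair share 912 exon bases on opposite strands, 23.1% of those of Mest, so their counts are uncertain. Cdkn1c, which encodes the cell cycle inhibitor p57, was at 4.66, 2.76 and 3.72 CPM in G392E-NS libraries and 2.76, 4.47 and 3.68 CPM in GFP libraries, with fully overlapping groups.

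In the domain of the Prader-Willi and Angelman syndromes, both tested members and 3 further tested genes were below 0, all without a call. Ndn, a paternally expressed growth suppressor of neurons, was at 32.7, 28.4 and 30.8 CPM in G392E-NS libraries and 31.0, 39.4 and 38.1 CPM in GFP libraries (log2 fold change -0.24, adjusted p 0.287, edgeR). Ube3a, an E3 ubiquitin ligase expressed from the maternal copy in neurons, was at 182, 138 and 104 CPM in G392E-NS libraries and 164, 162 and 163 CPM in GFP libraries (-0.20, adjusted p 0.538, edgeR). The GFP libraries of Ube3a agreed within 2 CPM, while the G392E-NS libraries lay on both sides of them. Peg12, a further imprinted gene of the domain, averaged 26.0 ± 4.57 CPM in G392E-NS and 34.7 ± 3.42 CPM in GFP, without overlap (-0.42, adjusted p 0.151, edgeR), and the ubiquitin ligase gene Mkrn3 was at -0.35. No row carried the gene ID of Snrpn or Kcnq1ot1. The row Gm38393 (ENSMUSG00000000948) lies at the Snrpn locus and shares 589 bases, 27.3%, of the exons of Snrpn and 100% of those of Snurf. Gm38393 averaged 76.3 ± 8.88 CPM in G392E-NS and 87.6 ± 8.12 CPM in GFP (SD, n = 3 each; log2 fold change -0.20, adjusted p 0.348, edgeR), and how much of it is Snrpn RNA was not tested. Commd1, a copper handling gene, had non-overlapping groups, lower in G392E-NS (-0.23 ± 0.15 SE, adjusted p 0.386, edgeR), and its intronic retrogene Zrsr1 was at -0.14. The log2 fold changes of Nap1l5 (-0.21), Mcts2 (-0.02), Inpp5f (0.04), Trappc9 (0.09), Igf2r (0.02), its antisense silencer Airn (0.08) and Impact (0.01) were all uncalled, and of these 7 genes none had separate groups.

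By parental class, signs were mixed among both the paternally and the maternally expressed genes, and neither class was tested as a set. Of 14 tested paternally expressed genes 0 were called higher and 1 lower (Peg3), 6 were above 0 and 8 below, and the median log2 fold change was -0.04, within a range of -0.56 to 1.58. Of 10 tested maternally expressed genes 0 were called higher and 1 lower (Ppp1r9a), 6 were above 0 and 4 below, and the median was 0.02, within a range of -0.47 to 3.12. The 3 tested genes whose parental origin depends on tissue or transcript, Grb10, Gnas and Begain, were all above 0, and 2 of them were called higher. Restricted to genes imprinted in most tissues, the maternal class held 3 tested genes, Zim1, H19 and Cdkn1c, with a median of 0.54, and the paternal class had 13 with a median of -0.05. Leaving out H19, whose sign follows from the filter, gave 9 maternally expressed genes with 5 above 0, a median of 0.02 and a highest value of 0.54, and in the stricter class 2 genes with a median of 0.28. Of 7 domains with at least 2 tested members, 5 had members of one sign and 2 had both signs, the Peg3 domain through Zim1 and the Nnat-Blcap domain through Blcap. Neither Zim1 nor Blcap was called, and the difference in sign within a domain was not tested.

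The summed level of the paternally expressed members was 2098, 2374 and 2227 CPM in G392E-NS libraries and 1872, 1741 and 2057 CPM in GFP libraries. The summed level of the maternally expressed members was 707, 649 and 621 CPM in G392E-NS libraries and 753, 742 and 718 CPM in GFP libraries. The groups did not overlap in either sum, with opposite signs. Both sums follow their most abundant genes and were not tested. The paternal one follows Nnat, at 1040, 1304 and 1315 CPM in G392E-NS libraries and 684, 636 and 927 CPM in GFP libraries. Without Nnat it was lower in every G392E-NS library than in any GFP library. The maternal one follows Ppp1r9a, Ube3a and Blcap, while Copg2 was higher in G392E-NS (means of 112 against 98.8 CPM). Maternally expressed genes imprinted in most tissues summed to 7.53, 9.29 and 6.06 CPM in G392E-NS libraries. In GFP libraries they summed to 4.61, 6.67 and 5.30 CPM, so the groups overlapped.

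Imprinted genes outside the 42 symbols were likewise mixed. Of 58 further symbols listed, 52 had a row and 28 were tested, of which 3 were called higher and 0 lower, 14 were above 0, and the median log2 fold change was 0.00062. Gatm, the first enzyme of creatine synthesis and imprinted in mouse placenta, averaged 206 ± 10.9 CPM in G392E-NS and 31.8 ± 5.72 CPM in GFP (SD, n = 3 each), a log2 fold change of 2.70 and an adjusted p of 8.95e-05 (edgeR). Casd1, a sialic acid O-acetyltransferase beside Sgce, averaged 39.1 ± 2.72 CPM in G392E-NS and 21.4 ± 1.72 CPM in GFP, a log2 fold change of 0.87 and an adjusted p of 0.00407 (edgeR). Cobl, an actin nucleator beside Grb10, averaged 5.18 ± 0.429 CPM in G392E-NS and 1.59 ± 0.521 CPM in GFP, a log2 fold change of 1.70 and an adjusted p of 0.0117 (edgeR), which became 0.0659 without GFP replicate 1. The Grb10 domain held 2 genes called higher, Grb10 and Cobl. Its other tested genes, 4930512M02Rik (log2 fold change -1.19) and Fignl1 (-0.31), were below 0 and not called. Around Peg10 and Sgce 2 genes were called higher, Casd1 and Pdk4, and Ppp1r9a was called lower. Pdk4, a kinase that restrains pyruvate dehydrogenase, had 54, 142 and 29 counts in G392E-NS libraries and 1, 0 and 0 in GFP libraries. Pdk4 passed the filter on low counts only through the G392E-NS libraries, so its sign follows from the filter. Within 500 kb of the members, 136 tested genes that are not members lay in these domains, of which 10 were called higher and 1 lower. Around Peg3 it was 0 of 10. Over all genes tested 4.79% were called higher and 1.36% lower, and a difference from these shares was not tested. Those called higher include Pdk4 and Ctsz (0.265 CPM in GFP), which both passed the filter on low counts only through the G392E-NS libraries.

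Of 32 listed genes that set or maintain imprints, 29 were tested, 1 was called higher and 0 lower. Over all genes tested 4.79% were called higher and 1.36% lower. Of the 29, 6 were above 0, against 49.3% of all genes tested. The median log2 fold change of the 29 was -0.15, and the list was not tested as a set. Dnmt3a, a DNA methyltransferase that lays down imprints in germ cells, averaged 143 ± 19.8 CPM in G392E-NS and 196 ± 12.4 CPM in GFP (SD, n = 3 each), without overlap. Its log2 fold change of -0.45 ± 0.12 (SE) was not called (edgeR adjusted p 0.0613), but it was called by DESeq2 (0.0118), with no low-count filter (0.0256) and on omission of G392E-NS replicate 1 (0.0168). The 1 called was Zfp57, the zinc finger protein that binds the methylated hexamer and holds imprints in the early embryo. Zfp57 was at 50.6, 45.4 and 24.3 CPM in G392E-NS libraries, against 15.3, 12.1 and 13.9 CPM in GFP libraries. Even the lowest G392E-NS library was above every GFP library. The log2 fold change was 1.54 ± 0.26 (SE), 2.92-fold, with an adjusted p of 0.0142 in edgeR's test, and the call was lost without GFP replicate 1 (0.0603) or GFP replicate 2 (0.0583). The windows of the other called members, Gnas, Peg3 and Ppp1r9a, held 0 copies of the hexamer. Whether the copies in Grb10 and Mest bear on their levels was not tested.

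Grb10, Igf2 and Igf2r act on insulin-like growth factor signalling, and of 25 listed genes of that pathway 21 were tested, 2 called higher and 1 lower. The shares over all genes tested were 4.79% higher and 1.36% lower. Of the 21, 11 were above 0, their median log2 fold change was 0.04, and the list was not tested as a set. Igf2bp3, an RNA-binding protein of IGF2 transcripts in embryos, averaged 15.1 ± 5.55 CPM in G392E-NS and 3.66 ± 0.785 CPM in GFP (SD, n = 3 each; log2 fold change 2.05, adjusted p 0.00656, edgeR). Htra1, a secreted protease that cleaves IGF-binding proteins, averaged 151 ± 35.1 CPM in G392E-NS and 55.5 ± 4.09 CPM in GFP (1.44, adjusted p 0.00348, edgeR). Igf2bp2, a relative of Igf2bp3, fell to 16.4 ± 0.811 CPM in G392E-NS, against 24.7 ± 2.27 CPM in GFP (-0.60, adjusted p 0.0237, edgeR). The Igf2bp2 call was lost without GFP replicate 1 (0.0882), 2 (0.132) or 3 (0.051) or G392E-NS replicate 2 (0.0512).

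Other measures separated the same 6 libraries, and their part in the imprinted gene results was not tested. Xist, the RNA of the inactive X chromosome, was at 1846, 1482 and 1156 CPM in G392E-NS libraries and 1.56, 1.56 and 1.41 CPM in GFP libraries. The genes Uty, Kdm5d, Eif2s3y and Ddx3y of the Y chromosome summed to 180, 187 and 179 CPM in G392E-NS libraries and 367, 366 and 336 CPM in GFP libraries, and 4 of 4 were called lower. The sex composition of the cultures and the expressed protein cannot be told apart in this design. Of 12 astrocyte markers, 4 were called higher and 11 were above 0, and their summed level was 11446, 19551 and 11508 CPM in G392E-NS libraries and 6553, 4407 and 7014 CPM in GFP libraries. For these and the marker lists below, the shares over all genes tested were 4.79% called higher, 1.36% lower and 49.3% above 0. G392E-NS replicate 2, the library with the highest astrocyte sum, also had the highest value of 7 of the 27 tested members, among them Plagl1, H19, Mest and Zim1, and the lowest value of 7. Over all genes tested it was highest for 23.9% and lowest for 19.2%. All 10 progenitor markers and 10 of 12 neuron markers were measured well enough to test. Summed progenitor markers ranged from 3900 to 4880 CPM in G392E-NS and 4113 to 4779 CPM in GFP, with 1 of 10 called higher and 1 lower, and summed neuron markers from 3160 to 4351 CPM in G392E-NS and 3392 to 3889 CPM in GFP, also with 1 of 10 tested in each direction.

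Markers of cells that express Igf2, H19 and Dlk1 strongly in the embryo, mesenchyme and vessel, were low. Whether the level of these markers bears on the counts of Igf2, H19 and Dlk1 was not tested. Mesenchymal and meningeal markers summed to 39.8 to 66.3 CPM in G392E-NS and 69.1 to 77.9 CPM in GFP, with 6 of 15 tested, 1 called higher, and Lum and Twist2 at 0 counts. Endothelial markers summed to 0.587 to 1.36 CPM in G392E-NS and 1.25 to 1.28 CPM in GFP, with Cdh5, Cldn5 and Erg at 0 counts. Oligodendrocyte lineage markers summed to 3032 to 5370 CPM in G392E-NS and 3458 to 4135 CPM in GFP, with 2 of 9 tested called higher, and microglia markers to 2.48 to 3.22 CPM in G392E-NS and 2.16 to 2.99 CPM in GFP, with Csf1r at 0 counts.

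**Figure D5:**
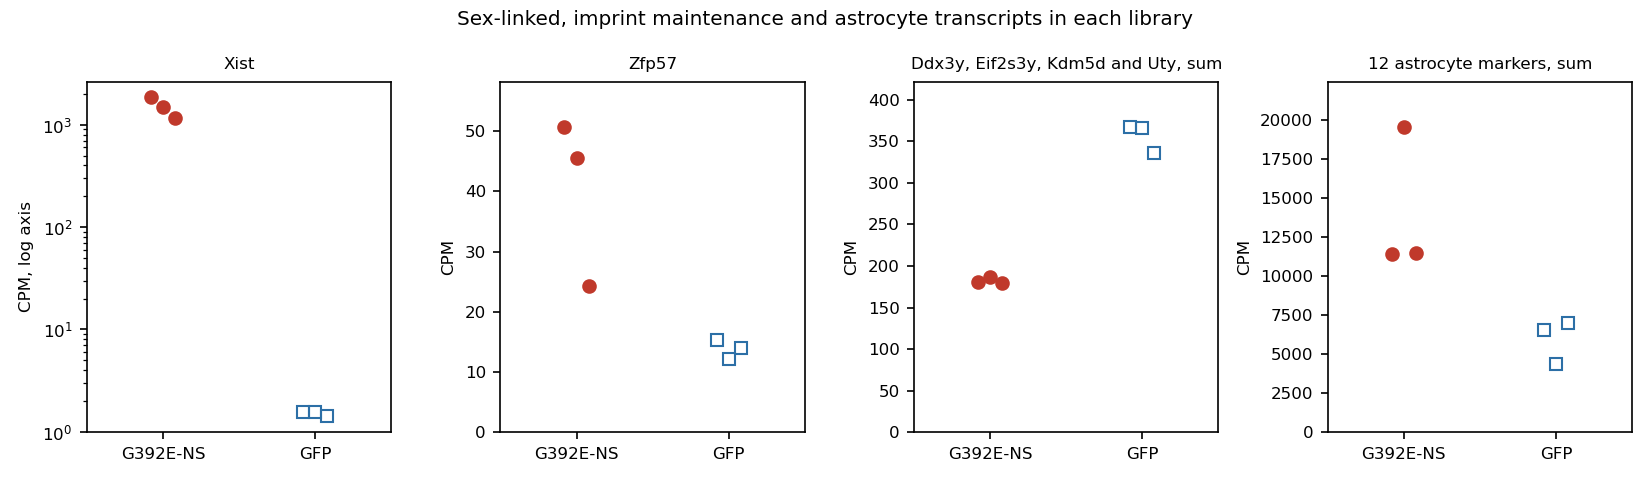
CPM in each library of Xist (log axis), Zfp57, the sum of 4 Y-linked genes and the sum of 12 astrocyte markers, G392E-NS as filled circles and GFP as open squares. In each panel the groups do not overlap, with the Y-linked sum lower in G392E-NS (179 to 187 CPM against 336 to 367 CPM) and the others higher.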

How the data were processed

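RNA of 3 G392E-NS and 3 GFP samples was analysed from a table of raw counts per Ensembl gene as deposited, whole numbers with no normalisation per the labels and the values. The submitters' processing notes list build GRCm38 and the tools DESeq2 1.4.5, R 3.2.2, HTSeq 0.6.1 and TopHat2 2.0.12. What each did, the strand setting and the annotation release were not given in the sources used here. Columns were matched to samples by name. Symbols, positions and exon lengths came from GENCODE M21 (GRCm38), which matched 37607 of 39179 IDs; 15991 genes had no counts. Replicate libraries differed by 8.02 to 56.4 in chi-square per degree of freedom, so none was a duplicate.

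The counts were tested with edgeR 4.0.16 in R 4.3.3: filterByExpr left 13775 genes with 99.9% of counts, TMM factors scaled the libraries, and a quasi-likelihood F test had no covariate. Benjamini-Hochberg adjustment covered all genes tested, with a threshold of 0.05. The biological coefficient of variation was 0.159. The script was tested on simulated data. Floors of 3 counts cover counting error only. All 42 symbols were accounted for; full statistics were given to called members and to measured members of their domains, and H19, Igf2, Plagl1, Nnat, Begain and others were given by values. From other lists called genes were named, except for the cell type markers, which were given by summed levels and counts of calls. Genes around the domains were taken within 500 kb. The members and lists were chosen with earlier results of these data known. Alternatives were DESeq2 1.42.0 and limma-voom (limma 3.58.1), scaling by total count, upper quartile or RLE, no low-count filter, a filter of 1 CPM in 3 libraries, thinning to the smallest library, a replicate block, 100 counts for membership, a stricter parental class and leaving out each library. Leaving out members with over 5% of exon bases shared, or H19 from the maternal class, was chosen after seeing the data.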

Additional observations from a re-analysis of the deposited data

How the results depend on the processing

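Grb10 was called under all 15 alternatives that give a value per gene (log2 fold change 1.29 to 1.47); Gnas, Peg3 and Ppp1r9a were not. Over all genes, 660 called higher (4.79%) became 1084 (7.87%) with DESeq2, 1205 (5.2%) without the low-count filter and 217 (1.58%) with the replicate block, and the share ranged from 1.38% without GFP replicate 1 to 7.04% without G392E-NS replicate 1. The 187 called lower (1.36%) became 366 (2.66%), 374 (1.61%) and 50 (0.363%), and the share ranged from 0.324% to 2.81% over the same omissions. Of the imprinted genes, 2 called higher became 5 with DESeq2, 6 without the filter, 1 with the replicate block and 1 without genes of shared exons, and ranged from 1 to 4. The 2 called lower became 1 with upper-quartile scaling, 1 with limma-voom, 1 with the 1 CPM filter and 0 with the replicate block, and ranged from 0 to 2. The cause was not tested. Replicate numbers did not pair the samples (correlations of same-numbered deviations 0.0338, -0.383 and -0.255, and not every library correlated best with its own number); the replicate block left adjusted p-values of 0.0549 for Gnas, 0.0844 for Peg3, 0.112 for Ppp1r9a and 0.0507 for Cobl. The median log2 fold change of the imprinted genes was -0.0374 with total-count scaling, which put the median of all genes at -0.0668, and ranged from -0.048 to 0.0222 on leaving out 1 library. That of the maternal class was -0.0341 with total-count scaling, 0.0719 after thinning and 0.539 in the stricter class, and ranged from -0.0765 to 0.133. That of the paternal class ranged from -0.13 to -0.00958. Signs of uncalled members near 0 reversed with total-count scaling for Cdkn1c (-0.0308), Igf2r (-0.0374), Impact (-0.0534) and Inpp5f (-0.0191), and for Impact with limma-voom (-0.0147), no filter (-0.00546) and the replicate block (-0.0183). On leaving out 1 library, log2 fold changes ranged from -0.0119 to 0.206 for Airn, -0.198 to 0.212 for Cdkn1c, -0.0577 to 0.13 for Igf2r, -0.233 to 0.144 for Impact, -0.0946 to 0.176 for Inpp5f and -0.171 to 0.00869 for Sgce. Under the filter of 1 CPM and after thinning, H19 had too few counts for a value.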
